A study of Rattus norvegicus with 8 samples.

Results

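The bradykinin and prostanoid receptors described here are 7 rat genes: the bradykinin receptor genes Bdkrb1 and Bdkrb2, the prostaglandin E2 receptor genes Ptger1 to Ptger4, and the prostacyclin receptor gene Ptgir. Members were all array probes whose RefSeq accession belongs to one of these genes. Of the 7 genes, 6 had a matched probe, with 7 probes in all, out of 15154 genes and 30367 probes on the array. The expression of Ptger1 was not analysed here.

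Cultures of dissociated dorsal root ganglia from Wistar rats 0 to 5 days old, with cells of males and females pooled, were kept in serum-free medium. The medium held 5-fluoro-2′-deoxyuridine, which limits dividing cells, and uridine. After 2 to 3 days in vitro, 1 of 3 forms of a human protein was added for 5 days at 100 ng/ml: the P61S/R100E double mutant (3 arrays), the P61S single mutant (3 arrays) or the wild type (2 arrays). Untreated cultures were not analysed here. Nothing in the labels ties replicates to separate cultures or animals, and p-values therefore measure only the spread between these samples. Each array measured the RNA of neurons and non-neuronal cells together, so fewer cells of a type and less RNA per cell cannot be told apart.

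These receptors are G protein-coupled receptors through which mediators released in injured or inflamed tissue act on sensory neurons. Bradykinin acts on the constitutive B2 receptor (Bdkrb2), while kinin fragments without the last arginine act on the B1 receptor (Bdkrb1), which is typically induced by tissue injury; both couple mainly to Gq and phospholipase C. Prostaglandin E2 acts on the receptors EP1 to EP4 and prostacyclin on the IP receptor. EP2, EP4 and IP raise cyclic AMP through Gs, EP1 raises calcium, and EP3 mainly lowers cyclic AMP through Gi. In nociceptors, the sensory neurons that detect harmful stimuli, the kinases downstream of these receptors lower the threshold of channels such as Trpv1 and Scn10a.

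The 75th percentile of the processed signal ran from 3267.1 to 5269.0 intensity units over the 8 arrays, and 78.7% to 88.8% of spots were well above background by the scanner software. The number of arrays limits the precision. All values below are log2 signals relative to this percentile of the same array, so 0 is the percentile itself. Across 23585 tested probes, wild type replicate 2 correlated with the other arrays at 0.983 to 0.989, and pairs of arrays without it at 0.99 to 0.996. It was also the array with the highest value for 37.2% of the tested probes, so differences from wild type are also given without it for the receptors and for the listed genes with an unadjusted p under 0.05. All 12 neuronal markers on the array were well above background on every array. Their summed signal, in multiples of the 75th percentile, was 205 to 221 with P61S/R100E, 190 to 220 with P61S and 200 to 226 with wild type.

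Of the 7 receptor probes, 5 (for Bdkrb2, Ptger2, Ptger3, Ptger4 and Ptgir) were well above background on all 8 arrays and were tested. The other 2, for Bdkrb1 and a second Ptger3 probe, were not. In 1 limma fit over all 23585 tested probes, 0 of the 5 passed an adjusted p of 0.05 in any of the 3 comparisons, and 0.0% of all tested probes passed in each of them. The smallest adjusted p of any probe was 0.0678 for P61S/R100E against P61S, 0.0543 for P61S/R100E against wild type and 0.285 for P61S against wild type. At an unadjusted p under 0.05, Ptger2 and Ptger3 were lower with P61S/R100E than with P61S, against 4.01% of all tested probes in that comparison (1.94% higher and 2.07% lower). Ptger2 was lower with P61S/R100E than with wild type, against 5.04% (1.6% higher and 3.44% lower), and Ptger3 was higher with P61S than with wild type, against 2.07% (0.691% higher and 1.38% lower).

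The arrays of both groups did not overlap for Ptger2 and Ptger3, lower with P61S/R100E than with P61S, as for 14.0% of all tested probes (5.75% higher and 8.23% lower). Against wild type, P61S/R100E did not overlap for Ptger2 and Ptgir, which were lower, and Ptger3, which was higher, as for 15.1% of probes (5.86% higher and 9.2% lower). For Ptgir the nearest arrays of these groups, both at -1.55, were only 0.0012 log2 units apart. P61S did not overlap with wild type for Ptger3, which was higher, and Ptger4, which was lower, as for 16.6% of probes (7.39% higher and 9.23% lower).

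**Figure D1:**
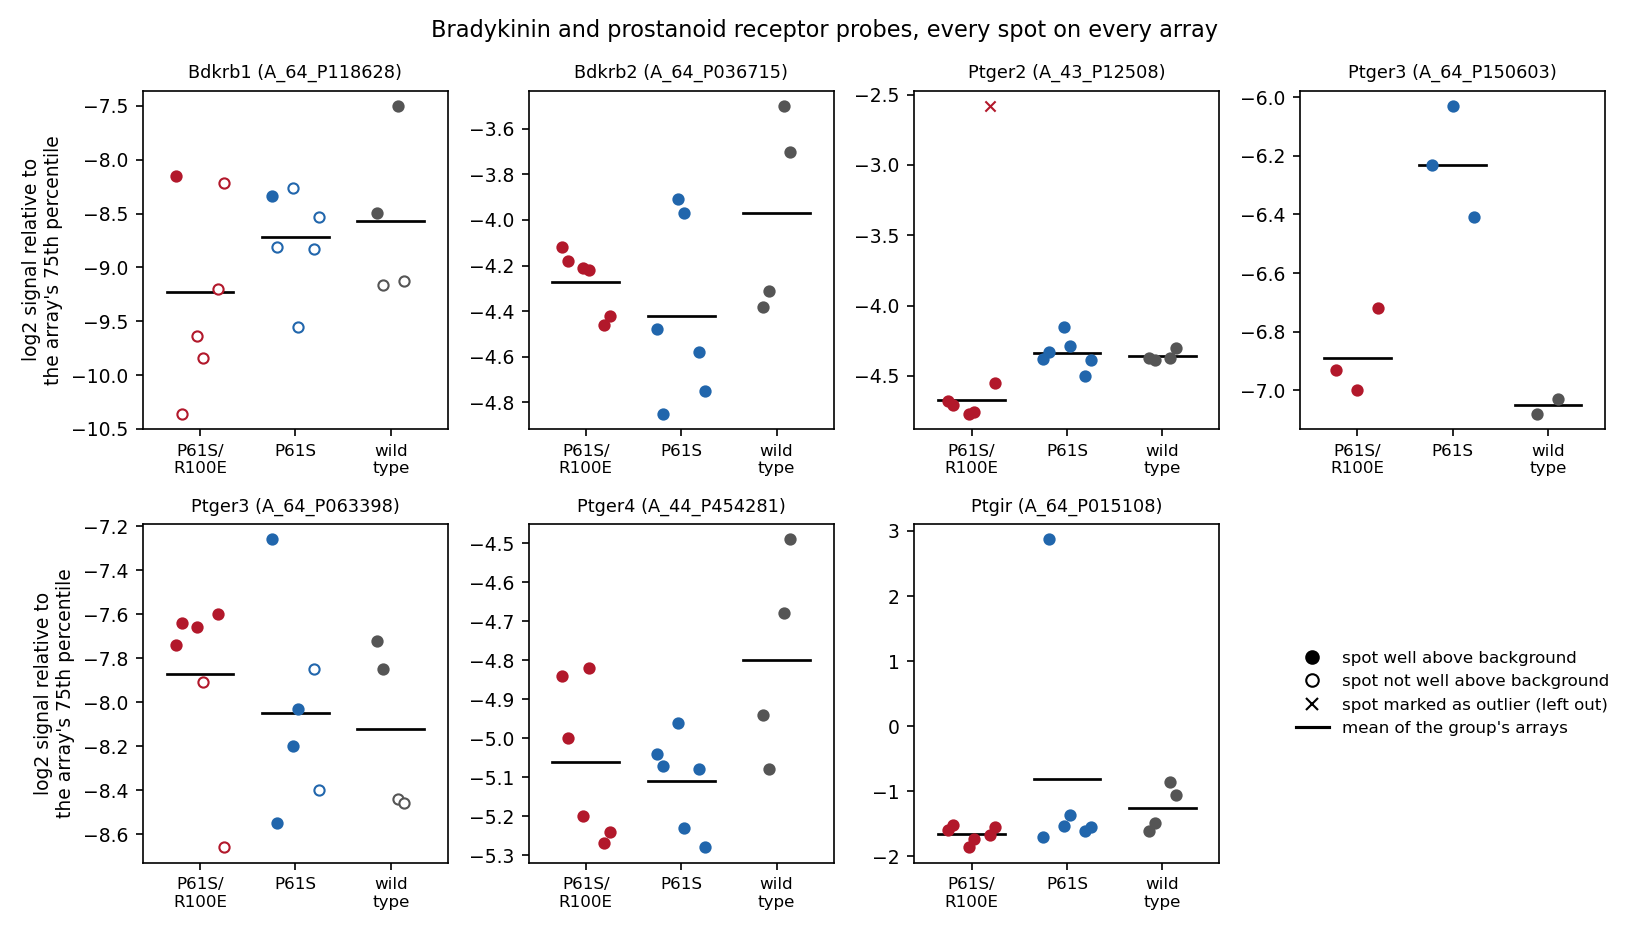
Every spot of the 7 receptor probes on the 8 arrays, as log2 signal minus that of the array's 75th percentile (vertical axis, a separate range for each probe), by group. Filled circles are spots well above background, open circles are not, a cross is a spot marked as an outlier and left out, and bars are means of the arrays of a group. The 3 P61S arrays lie above the other 5 for Ptger3 (A_64_P150603), between -6.41 and -6.03, and 1 spot of Ptgir on a P61S array lies at 2.87, far above all other Ptgir spots.

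Of the bradykinin receptors, Bdkrb2 could be tested and differed between groups by less than its spread between arrays. Bdkrb2 (probe A_64_P036715) had log2 signals of -4.15, -4.22 and -4.44 with P61S/R100E, -4.66, -3.94 and -4.66 with P61S, and -4.35 and -3.60 with wild type. The groups overlapped in all 3 comparisons, and P61S held both the lowest values and one of the highest. Means were -4.27 ± 0.15 with P61S/R100E, -4.42 ± 0.42 with P61S (SD, n = 3 each) and -3.97 ± 0.52 with wild type (n = 2). No pair of groups was further apart than the larger SD of the pair.

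For Bdkrb2 the difference of P61S/R100E from P61S was 0.15 (SE 0.262, 95% interval -0.47 to 0.78). P61S/R100E differed from wild type by -0.29 (SE 0.293, 95% interval -0.99 to 0.40), and P61S differed from wild type by -0.45 (SE 0.293, 95% interval -1.14 to 0.25). Without wild type replicate 2 these last 2 differences were 0.08 and -0.08, so 1 array set their size, and the first of them changed sign. Without wild type replicate 1 they were -0.66 and -0.82. The intervals leave room for differences of either sign.

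Bdkrb1 (probe A_64_P118628) was dim. Its probe has 2 spots, and on no array were both well above background. A single spot was well above background on P61S/R100E replicate 1, P61S replicate 1 and both wild type arrays. The mean log2 signals of the 2 spots were -9.25, -9.74 and -8.71 with P61S/R100E, -8.57, -8.90 and -8.68 with P61S, and -8.83 and -8.31 with wild type. At this level the paired spots of a probe on one array differed by a median of 0.76 log2 units (6489 pairs). Group means average the spots of several arrays, so their distances cannot be set directly against this value. No group had the probe above background on any of its arrays, and no fold is given. In the RefSeq annotation Bdkrb2 and Bdkrb1 are neighbours, with a long non-coding RNA gene listed between them.

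Ptger3, the EP3 receptor, had higher values with P61S than with either other form, and of the 5 tested receptors it differed most relative to its standard error in both comparisons that include P61S. Its tested probe (A_64_P150603) has a single spot. The processed signals were 30.7, 41.1 and 42.4 intensity units with P61S/R100E, 68.8, 60.2 and 56.2 with P61S, and 37.2 and 25.0 with wild type. Relative to the 75th percentile, the log2 signals were -6.93, -7.00 and -6.72 with P61S/R100E, -6.23, -6.03 and -6.41 with P61S, and -7.08 and -7.03 with wild type. All 3 P61S arrays lay above all other arrays, a pattern that 289 of the 23585 tested probes (1.23%) had.

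Group means for Ptger3 were -6.89 ± 0.14 with P61S/R100E, -6.23 ± 0.19 with P61S (SD, n = 3 each) and -7.05 ± 0.03 with wild type (n = 2). P61S/R100E was 1.58-fold lower than P61S (log2 difference -0.66, SE 0.123, 95% interval -0.95 to -0.37). The unadjusted p was 0.0011, rank 55 of the 23585 probes, and the adjusted p was 0.46 by limma. P61S was 1.78-fold higher than wild type (log2 difference 0.83, SE 0.138, 95% interval 0.50 to 1.16), with an unadjusted p of 0.00056, rank 3, and an adjusted p of 1.0. P61S/R100E and wild type did not overlap either, but their difference of 0.17 (SE 0.138, 95% interval -0.16 to 0.50) was close to its standard error, with an unadjusted p of 0.26. The 3 comparisons share arrays and are not independent of each other.

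Each difference of Ptger3 kept its sign under all 22 alternative settings, with values of -0.97 to -0.22 for P61S/R100E against P61S and 0.39 to 1.44 for P61S against wild type. Adjusted p-values over these settings ran from 0.33 to 1.0 and from 0.095 to 1.0. Filters, spot settings, the variance trend and a fit of only the groups compared could not change the differences at this single-spot probe. As the groups did not overlap, leaving out 1 array could not turn their sign. Without wild type replicate 2, P61S differed from wild type by 0.85 and P61S/R100E from wild type by 0.19. Within the first row of the slide P61S/R100E differed from P61S by -0.80 (1 array against 2), and within the second by -0.45 (2 against 1). For P61S against wild type the same values were 0.94 (2 arrays against 1) and 0.62 (1 against 1). With groups that do not overlap, the signs of such splits could not differ. All arrays sat on 1 slide, where column 1 held only P61S arrays, column 3 only P61S/R100E arrays and column 4 only wild type arrays. In column 2, the only one with more than 1 group, P61S/R100E replicate 2 differed from P61S replicate 2 by -0.97 at Ptger3. For the other arrays, column and group cannot be told apart.

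With 1 spot, Ptger3 has no duplicate on the same array. Among probes of a similar brightness with 2 spots, the spots differed by a median of 0.25 and a 95th percentile of 1.5 log2 units (8542 pairs). The second Ptger3 probe (A_64_P063398, 2 spots) was well above background in both spots on 1 of 3 P61S/R100E arrays, 2 of 3 P61S arrays and 1 of 2 wild type arrays. It had log2 signals of -7.69, -7.79 and -8.13 with P61S/R100E, -7.90, -8.12 and -8.13 with P61S, and -7.79 and -8.45 with wild type. Its groups overlapped in all 3 comparisons, and P61S did not stand above the other groups. Fitted without a filter on background, P61S/R100E differed from P61S by 0.18 (SE 0.207) and P61S from wild type by 0.07 (SE 0.231, 95% interval -0.49 to 0.63) at this probe. The mean of both probes gave -0.24 (SE 0.110) for P61S/R100E against P61S and 0.45 (SE 0.123) for P61S against wild type. The difference at the single-spot probe was thus not seen at the other one, and whether the probes read different transcripts was not tested.

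**Figure D2:**
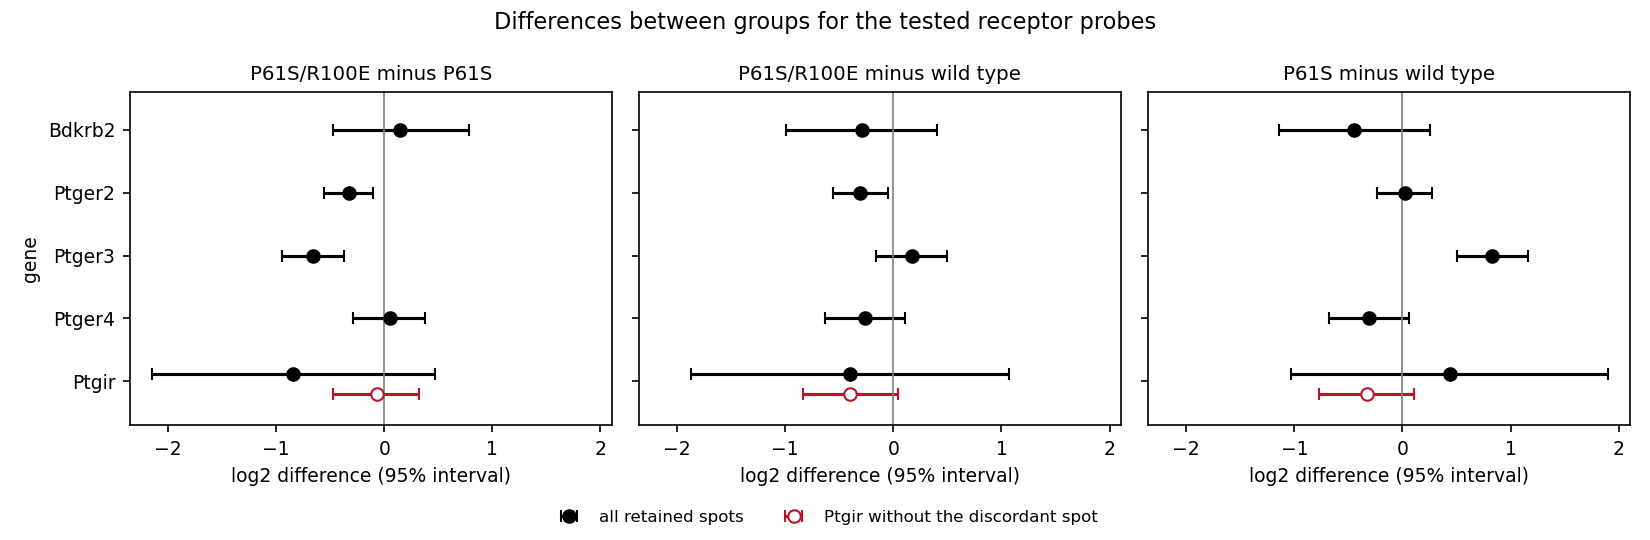
Log2 differences (horizontal axis) with 95% intervals for the 5 tested receptor probes in each of the 3 comparisons. Filled circles use all retained spots, and the open circle for Ptgir leaves out the discordant spot. The intervals of Ptger3 exclude 0 for P61S/R100E minus P61S (-0.95 to -0.37) and P61S minus wild type (0.50 to 1.16), and those of Bdkrb2 and Ptger4 cross 0 in all 3 panels.

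Ptger2, the EP2 receptor, was lower with P61S/R100E than with both other forms, by a smaller amount. Its probe (A_43_P12508) had log2 signals of -4.70, -4.76 and -4.55 with P61S/R100E, -4.36, -4.22 and -4.45 with P61S, and -4.38 and -4.34 with wild type. All 3 P61S/R100E arrays lay below all other arrays, as did 740 of the 23585 tested probes (3.14%). P61S/R100E averaged -4.67 ± 0.11 and P61S -4.34 ± 0.11 (SD, n = 3 each), with wild type at -4.36 ± 0.03 (n = 2).

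P61S/R100E was 1.25-fold lower than P61S at Ptger2 (log2 difference -0.33, SE 0.0966, 95% interval -0.56 to -0.10), with an unadjusted p of 0.012 and an adjusted p of 1.0 by limma. It was 1.24-fold lower than wild type (log2 difference -0.31, SE 0.108, 95% interval -0.56 to -0.05), with an unadjusted p of 0.025 and an adjusted p of 0.75. P61S and wild type differed by 0.02 (SE 0.108, 95% interval -0.24 to 0.27). Without wild type replicate 2, P61S/R100E differed from wild type by -0.28 (SE 0.137) and P61S by 0.04. P61S/R100E differed from P61S by -0.19 with normexp background correction (unadjusted p of 0.073 by limma). With quantile normalization this was -0.26 (0.048), and with slide column as a covariate -0.54 (0.0099). The difference of P61S/R100E from wild type also depended on the processing. It was -0.12 with normexp background correction (unadjusted p of 0.29), -0.15 with quantile normalization (0.27) and -0.09 with slide column as a covariate (0.56), and its unadjusted p was under 0.05 in 8 of 21 alternatives.

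The Ptger2 difference depended on how 1 spot on 1 array was treated. On P61S/R100E replicate 3 the spots read 747.6 and 191.5 intensity units, and the scanner software marked the brighter one as an outlier. With that spot kept, the difference of P61S/R100E from P61S was 0.00 (SE 0.308) and that from wild type 0.02 (SE 0.344). The authors' deposited matrix, which averages both spots, gave 0.00 (SE 0.300) and 0.02 (SE 0.336). Without P61S/R100E replicate 3 altogether, the other arrays gave -0.39 against P61S. In the remaining arrays the paired Ptger2 spots differed by 0.02 to 0.13 log2 units.

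The sequences before the start sites of Ptger3 and Ptger2 are shown because these receptors had the lowest unadjusted p-values among the members. Each is the 250 bases before and 50 after the annotated start, from RefSeq on build GRCr8, with the GC box (GGGCGG or CCGCCC on either strand) in capitals. Ptger3 lies at chr2:249264832-249265131 and Ptger2 at chr15:20696796-20697095, both on the plus strand.
Ptger3: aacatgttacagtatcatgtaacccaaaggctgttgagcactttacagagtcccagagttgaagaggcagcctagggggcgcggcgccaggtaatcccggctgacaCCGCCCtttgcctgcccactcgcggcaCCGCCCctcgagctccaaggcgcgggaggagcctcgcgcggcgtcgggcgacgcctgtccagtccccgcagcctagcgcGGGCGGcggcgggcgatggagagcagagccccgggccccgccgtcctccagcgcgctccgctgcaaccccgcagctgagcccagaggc
Ptger2: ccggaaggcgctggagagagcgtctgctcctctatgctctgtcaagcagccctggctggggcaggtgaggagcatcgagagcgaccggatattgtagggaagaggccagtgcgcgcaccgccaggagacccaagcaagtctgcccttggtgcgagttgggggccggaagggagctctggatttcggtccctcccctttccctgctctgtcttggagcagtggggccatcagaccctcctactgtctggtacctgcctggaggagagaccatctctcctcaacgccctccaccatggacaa
The Ptger3 window had 3 GC box matches and a GC content of 69.7%, and the Ptger2 window had 0 matches and 62.3%. A GC box occurs in 33.1% of the 33469 RefSeq promoter windows of the same length, whose median GC content is 51.7%. The windows of Bdkrb1, Ptger1, Ptger2, Ptger3, Ptger4 and Ptgir held no match to the cyclic AMP response half-site TGACG (21.2% of all windows on either strand), the AP-1 site TGANTCA (7.33%) or the TATA box TATAAA (14.2%). A match or its absence in a window says nothing here about binding of a factor, and these arrays do not measure it.

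Ptger4, the EP4 receptor, had no difference with an unadjusted p under 0.05. Its probe (A_44_P454281) had log2 signals of -4.92, -5.01 and -5.26 with P61S/R100E, -5.05, -5.09 and -5.18 with P61S, and -5.01 and -4.59 with wild type. Means were -5.06 ± 0.18 with P61S/R100E, -5.11 ± 0.06 with P61S (SD, n = 3 each) and -4.80 ± 0.30 with wild type (n = 2). All 3 P61S arrays lay below both wild type arrays, as did 9.23% of all tested probes.

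P61S/R100E differed from P61S by 0.05 at Ptger4 (SE 0.141, 95% interval -0.29 to 0.38). The differences from wild type were -0.26 (SE 0.157) for P61S/R100E and -0.31 (SE 0.157, 95% interval -0.68 to 0.06) for P61S. Without wild type replicate 2 they were -0.05 and -0.10, and without wild type replicate 1 they were -0.47 and -0.52. Wild type replicate 2 held the highest Ptger4 value.

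For Ptgir, the IP receptor, the comparisons with P61S depended on 1 spot. Its probe (A_64_P015108) had log2 signals of -1.55, -1.79 and -1.61 with P61S/R100E, 0.58, -1.45 and -1.58 with P61S, and -1.55 and -0.95 with wild type. On P61S replicate 1 the spots read 1588.4 and 37875.4 intensity units, 23.8-fold apart, and neither was marked as an outlier. Of 10268 spot pairs within 0.5 log2 units of this probe's mean level of -1.24, 3 (0.0292%) differed by over 4-fold. Among them, 1 pair was as far apart as these spots or farther. The Ptgir pair on P61S replicate 1, with a mean of 0.58, lay outside that range of brightness.

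With all spots, P61S/R100E differed from P61S by -0.84 at Ptgir (SE 0.554, 95% interval -2.15 to 0.47). Without the spot at 37875.4, an alternative chosen after seeing the data, P61S replicate 1 stood at -1.70 and the difference was -0.07 (SE 0.166, 95% interval -0.47 to 0.32). P61S against wild type was 0.44 (SE 0.619) with all spots and -0.33 (SE 0.186) without that spot, so its sign turned. Without wild type replicate 2 and with all spots it was 0.73 (SE 0.826). P61S/R100E differed from wild type by -0.40, with an SE of 0.619 with all spots and 0.186 without that spot. The difference of P61S/R100E from wild type was -0.10 without wild type replicate 2, whose value of -0.95 was the highest of the 7 arrays other than P61S replicate 1. The authors' deposited matrix keeps the bright spot, with Ptgir on P61S replicate 1 at 0.14 relative to its column's 75th percentile, against -1.92 and -2.03 on the other P61S arrays.

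**Figure D3:**
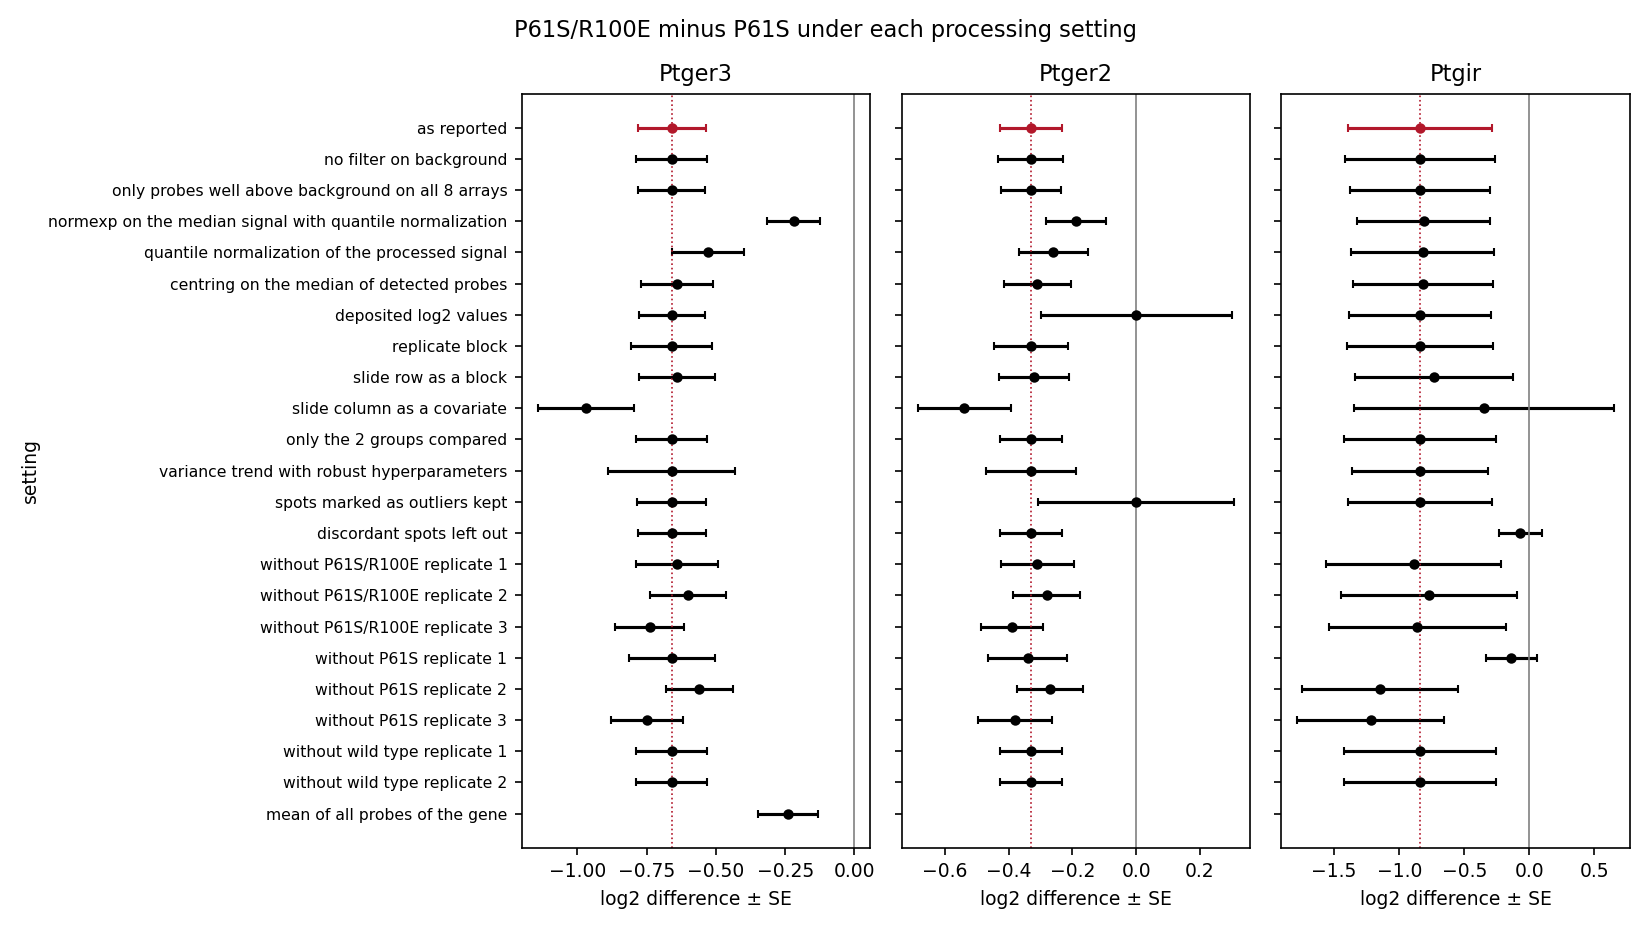
Log2 difference of P61S/R100E minus P61S (horizontal axis, ± SE) for Ptger3, Ptger2 and Ptgir under each processing setting (vertical axis), with the reported value in red and as a dotted line. Ptger3 stayed below 0 in all rows (-0.97 to -0.22), Ptger2 reached 0.00 where outlier spots were kept or the deposited values used, and Ptgir moved to -0.07 where discordant spots were left out.

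Without the discordant Ptgir spot, Bdkrb2, Ptger4 and Ptgir were highest on wild type replicate 2, and Ptger2 and Ptger3 on P61S replicate 2. Those arrays held the highest value of 37.2% and 14.4% of all tested probes.

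Genes that act before and after these receptors were read from fixed lists, with the brightest probe standing for each gene. Over all tested probes the median difference was -0.02 for P61S/R100E against P61S, -0.06 for P61S/R100E against wild type and -0.04 for P61S against wild type. No gene on any of the 6 lists passed an adjusted p of 0.05 in limma. The counts below stand against the shares of all tested probes at an unadjusted p under 0.05 given above, which are repeated beside them. Genes counted below at an unadjusted p under 0.05 are named, and Ptgdr2, Ptgds, Hpgds, Abcc4, Adcy4, Adcy8, Rgs2, Rgs4, Kcnq3 and Ano1 were chosen for naming after their values were seen.

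Among the remaining prostanoid receptors, all 4 (Ptgdr, Ptgdr2, Ptgfr and Tbxa2r) were tested, and 0 had an unadjusted p under 0.05 in any comparison. Their median difference was -0.16 for P61S/R100E against P61S, -0.27 for P61S/R100E against wild type and -0.18 for P61S against wild type. Tbxa2r, the thromboxane A2 receptor, differed by -0.24 (SE 0.164) between P61S/R100E and P61S. Ptgfr, the prostaglandin F receptor, differed by 0.07 (SE 0.221), and Ptgdr, a prostaglandin D2 receptor, by -0.07 (SE 0.185). Ptgdr2, another prostaglandin D2 receptor, differed by -0.66 (SE 0.452) between P61S/R100E and P61S and by -1.0 (SE 0.505, unadjusted p of 0.088, adjusted p of 0.75 by limma) between P61S/R100E and wild type, with overlapping groups in both.

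Of 15 genes of prostanoid synthesis, transport and breakdown, 14 were tested. At an unadjusted p under 0.05, P61S/R100E was lower than P61S for 1 (2.07% of all tested probes) and higher for 0 (1.94%). Against wild type, P61S/R100E was higher for 3 (Ptgds, Hpgds and the transporter gene Abcc4; 1.6%) and lower for 2 (Ptges and Ptgs1; 3.44%), and P61S was higher for 1 (Hpgds; 0.691%) and lower for 0 (1.38%). Ptges, the microsomal synthase that makes prostaglandin E2, averaged -3.13 ± 0.02 with P61S/R100E, -2.87 ± 0.05 with P61S (SD, n = 3 each) and -2.65 ± 0.26 with wild type (n = 2). It was 1.20-fold lower with P61S/R100E than with P61S (log2 difference -0.26, SE 0.106) and 1.39-fold lower than with wild type (-0.48, SE 0.119), with unadjusted p-values of 0.043 and 0.0051 and adjusted p-values of 1.0 and 0.75. Ptgs1, the constitutive cyclooxygenase, differed by -0.14 (SE 0.0940) between P61S/R100E and P61S and by -0.39 (SE 0.105) between P61S/R100E and wild type. Its second probe differed by -0.45 (SE 0.418) and -0.58 (SE 0.467) in these comparisons. Ptgs2, the inducible cyclooxygenase, differed by -0.35 (SE 0.301) and -0.43 (SE 0.336) in the same comparisons, with overlapping groups in both. Ptgis, the prostacyclin synthase that makes the ligand of Ptgir, differed by -0.09 (SE 0.175) and 0.18 (SE 0.195). Ptgds and Hpgds, the prostaglandin D2 synthases, differed between P61S/R100E and wild type by 0.68 (SE 0.256) and 0.36 (SE 0.126). Abcc4 differed by 0.33 (SE 0.137) between P61S/R100E and wild type, and its second probe by 0.03 (SE 0.151). Without wild type replicate 2, P61S/R100E differed from wild type by -0.30 for Ptges, -0.34 for Ptgs1, 0.64 for Ptgds, 0.33 for Hpgds and 0.19 for Abcc4, and P61S by 0.33 for Hpgds. Hpgd, which inactivates prostaglandins, differed by 0.18 (SE 0.384) between P61S/R100E and P61S and by 0.86 (SE 0.429) between P61S/R100E and wild type.

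Of 14 genes of kinin precursors, kallikreins and kinin-degrading peptidases, 10 were tested, and 0 had an unadjusted p under 0.05 in any comparison. Their median difference was 0.04 for P61S/R100E against P61S, -0.08 for P61S/R100E against wild type and -0.12 for P61S against wild type. Kng1 and Kng2, the kininogen genes from which kinins are cut, differed by 0.08 (SE 0.0957) and 0.11 (SE 0.103) between P61S/R100E and P61S. Klkb1, plasma kallikrein, was well above background on 0 of the 8 arrays. Ace, the peptidase that degrades bradykinin, differed by 0.01 (SE 0.0906), and by -0.22 (SE 0.149) at its second probe. Mme, neprilysin, differed by 0.23 (SE 0.115).

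Of 34 listed genes for G proteins and effectors, 31 were on the array and 30 were tested. At an unadjusted p under 0.05, P61S/R100E was higher than P61S for 1 (Adcy8; 1.94% of all tested probes) and lower for 1 (Adcy4; 2.07%), both adenylyl cyclases, which make cyclic AMP, and higher than wild type for 1 (Adcy8; 1.6%). P61S against wild type had 0. The Adcy8 mean was -3.65 ± 0.08 in P61S/R100E cultures against -4.09 ± 0.06 in P61S cultures (SD, n = 3 each), a difference of 0.44 (SE 0.0896) with an adjusted p of 0.57, and it differed from wild type by 0.41 (SE 0.100), or by 0.31 without wild type replicate 2. Adcy4 differed by -0.42 (SE 0.173) between P61S/R100E and P61S. Between P61S/R100E and P61S, Gnas, which encodes the Gs alpha subunit used by EP2, EP4 and IP, differed by 0.07 (SE 0.154), and Gnai2, a Gi alpha subunit, by 0.05 (SE 0.0907). Gnaq, the Gq alpha subunit used by the bradykinin receptors, differed by 0.19 (SE 0.250), and Gna11, its close relative, by 0.10 (SE 0.241). Plcb3, a phospholipase C, differed by -0.18 (SE 0.188), Prkaca, a catalytic subunit of protein kinase A, by 0.08 (SE 0.0898), and Prkce, a protein kinase C, by 0.04 (SE 0.131). Each of these 7 differences, at the brightest probe of its gene, was smaller than its standard error. A second probe differed by -0.23 (SE 0.229) for Gnas, -0.10 (SE 0.199) for Prkaca and -0.01 (SE 0.154) for Prkce.

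Of 8 receptor desensitization genes, 7 were tested, with P61S/R100E lower than P61S for 2 (Rgs2 and Rgs4) and lower than wild type for 1 (Rgs4) at an unadjusted p under 0.05, against 2.07% and 3.44% of all tested probes. Rgs2 and Rgs4, which speed the switching off of G proteins, differed by -0.20 (SE 0.0732) and -0.32 (SE 0.0900) between P61S/R100E and P61S, and Rgs4 by -0.39 (SE 0.101) between P61S/R100E and wild type, or by -0.25 without wild type replicate 2. Arrb2, an arrestin that binds phosphorylated receptors, differed by 0.06 (SE 0.128) between P61S/R100E and P61S, and Grk2, a receptor kinase, by -0.06 (SE 0.143). For Arrb2 and Grk2 these groups overlapped.

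Of 14 ion channel genes whose channels these receptors modulate in sensory neurons, 13 were on the array and tested. P61S/R100E was lower than P61S for 3 (Trpa1, Trpv1 and Scn10a) and higher for 1 (Kcnq3) at an unadjusted p under 0.05, against 2.07% and 1.94% of all tested probes. It was lower than wild type for 2 (Trpa1 and Trpv1) and higher for 2 (Kcnq3 and Ano1), against 3.44% and 1.6%. P61S against wild type had 0. The irritant receptor Trpa1 averaged -5.13 ± 0.42 with P61S/R100E, -4.42 ± 0.21 with P61S (SD, n = 3 each) and -4.00 ± 0.38 with wild type (n = 2). It was 1.63-fold lower with P61S/R100E than with P61S (log2 difference -0.71, SE 0.246), with an unadjusted p of 0.024 and an adjusted p of 1.0. The capsaicin receptor Trpv1 was 1.21-fold lower (log2 difference -0.27, SE 0.0954, unadjusted p of 0.025), and its second probe differed by -0.34 (SE 0.120). The sodium channel Scn10a was 1.16-fold lower (-0.21, SE 0.0847, unadjusted p of 0.043). Kcnq3, a potassium channel subunit, averaged -1.65 ± 0.23 with P61S/R100E, -2.64 ± 0.19 with P61S (SD, n = 3 each) and -2.45 ± 0.07 with wild type (n = 2). It was 1.99-fold higher with P61S/R100E than with P61S (log2 difference 0.99, SE 0.150), with an adjusted p of 0.26 by limma, and its second probe differed by 0.64 (SE 0.120). Ano1, a calcium-activated chloride channel, differed by 0.42 (SE 0.162) between P61S/R100E and wild type, while its second probe differed the other way, by -0.35 (SE 0.310). Without wild type replicate 2, P61S/R100E differed from wild type by -0.87 for Trpa1, -0.20 for Trpv1, 0.75 for Kcnq3 and 0.23 for Ano1.

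**Figure D4:**
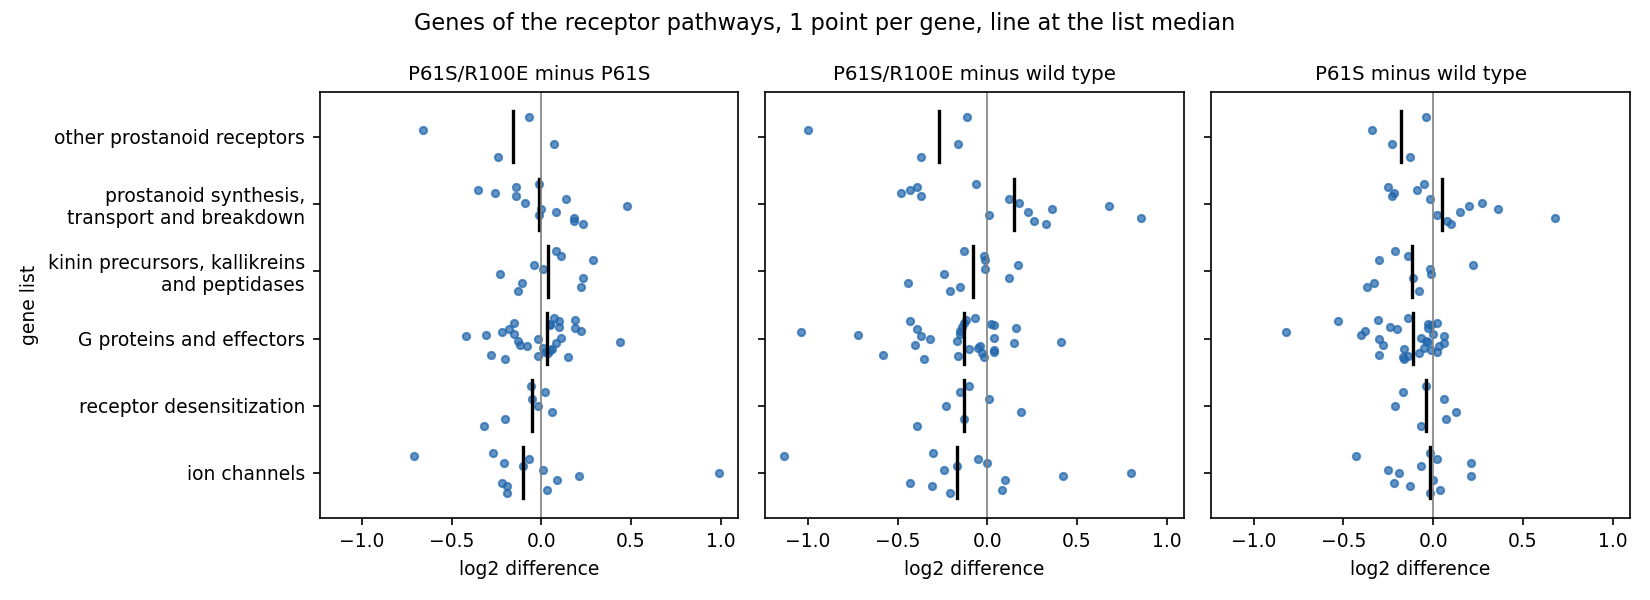
Log2 differences (horizontal axis) of the tested genes on each of the 6 lists, 1 point per gene, in the 3 comparisons. Vertical black lines are list medians, which lie between -0.27 and 0.15, and grey lines mark 0.

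Markers of cell types that can carry these receptors were read on the same arrays, and their part in the receptor values was not tested. The summed signal of 7 nociceptor markers, in multiples of the 75th percentile, was 109 to 118 with P61S/R100E, 113 to 139 with P61S and 121 to 123 with wild type. The P61S/R100E sums lay below those of wild type and overlapped with those of P61S. Of the 6 tested nociceptor markers, 2 did not overlap between P61S/R100E and wild type, against 15.1% of all tested probes. Between P61S/R100E and P61S, 3 of the 6 did not overlap, against 14.0%, and their differences ran from -0.27 to -0.07. Trpv1 and Scn10a, given above as ion channels, are the 2 of these markers lower than with P61S at an unadjusted p under 0.05 by limma (2.07% of all tested probes). The summed signal of 8 fibroblast markers was 153 to 185, 145 to 161 and 161 to 161 in the same order, and that of 8 Schwann cell markers 74.1 to 83.6, 70.0 to 76.5 and 75.2 to 75.4. For 12 macrophage markers it was 5.29 to 6.41, 5.26 to 6.44 and 5.21 to 5.79. For 6 satellite glia markers it was 12.9 to 13.6, 13.1 to 13.3 and 13.1 to 13.2, and for 10 endothelial and mural cell markers, of which Tek was well above background on no array, 2.15 to 2.51, 2.14 to 2.29 and 2.28 to 2.43. Of 5 mast cell markers on the array, Cma1 and Fcer1a were well above background on no array, and the summed signal was 0.131 to 0.180 with P61S/R100E, 0.131 to 0.178 with P61S and 0.164 to 0.191 with wild type. Such sums weigh the brightest markers most. Between P61S/R100E and wild type, 4 of 12 tested neuronal, 4 of 11 macrophage, 1 of 8 Schwann cell and 2 of 3 mast cell markers did not overlap. For 8 fibroblast, 6 satellite glia and 8 endothelial and mural cell markers tested this count was 0, against 15.1% of all tested probes.

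The genes whose log2 values followed each receptor most closely over the 8 arrays were ranked by Pearson's r among 11446 candidates. They were Irak4 (r = 0.966) and Zc3h11a (r = 0.930) for Ptger3, Abca5 (0.968) and Lilrc2 (0.952) for Ptger2, Or56a5 (0.982) and Mfap3 (0.975) for Ptger4, and Cend1 (0.968) and Atf5 (0.965) for Bdkrb2. For Ptgir they were Limch1 (0.984) and C10h17orf107 (0.917) with all spots, and Tll1 (0.989) and Pfkfb3 (0.987) without discordant spots. These are the highest of many values over 8 arrays that share a slide and their scaling, and they are given as a description.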

How the data were processed

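RNA of 8 dorsal root ganglion cultures was hybridised to 1-colour arrays of design 028279 (genome build rn4, per the file headers), all on 1 slide read in 1 scan. The signal was background-subtracted spot intensity made by the authors with Agilent Feature Extraction 10.7.3.1 (protocol GE1_107_Sep09), per the file headers. The deposited matrix held log2 values, which equalled the mean log2 intensity of a probe's spots within 0.01 for 21661 to 21678 of 22018 probes on an array, and it served as an alternative. Its columns were not normalized between arrays. Per the labels' protocols, samples below an RNA integrity number of 8.0 were not used.

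Here the processed intensity was turned to log2, minus the log2 75th percentile of the array's 58717 non-control spots. Spots of a probe were averaged without those the scanner software marked as outliers. A probe was tested if well above background in all retained spots on every array of 1 or more groups (23585 of 30367 probes). Probes were named by RefSeq accession (17998 matched a gene), and the brightest probe stood for a gene. No coordinates are given for probes, since the reference table is on another build. Group means of all 8 arrays were fitted with limma 3.58.1 in R 4.3.3 (5 residual and 1.93 prior degrees of freedom), with Benjamini-Hochberg adjustment over all tested probes and a threshold of 0.05, after a test on simulated data. Python 3.11.15 with numpy 2.4.6, pandas 2.3.3 and matplotlib 3.10.9 served for the summaries and plots.

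Named were all receptor probes, chosen genes of each list, and the 2 genes closest to each receptor by Pearson's r. Genes chosen after their values were seen are listed in the text, and 1 gene that the rule takes is not reported here. The receptors, lists and rules were chosen with earlier results of these data known. Alternatives were no filter, a filter on all arrays, normexp (offset 50) with quantile normalization, quantile normalization, median centring, the deposited values, replicate number or slide row as a block, slide column as a covariate, only the groups compared, a variance trend, outlier spots kept, each array left out, the mean of all probes of a gene and, chosen after seeing the data, spots over 4-fold from their duplicate left out. Normexp used the median spot signal, because the files used here hold no mean signal column.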

Additional observations from a re-analysis of the deposited data

How the results depend on the processing

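In all alternatives run, 0 receptor probes passed an adjusted p of 0.05. Over all probes, 0 passed as reported. The count became 1 for P61S/R100E against P61S with the filter on all 8 arrays and with the deposited values, and 6 with the variance trend, and leaving out each array gave 0 to 3 (3 without P61S replicate 2). For P61S/R100E against wild type it was 1 with the filter on all 8 arrays, normexp, quantile normalization, the deposited values and the variance trend. Leaving out each array there gave 0 to 1244, with 1244 without wild type replicate 1, 2 without P61S replicate 2 and 1 without wild type replicate 2. For P61S against wild type it was 1 with normexp and with quantile normalization, and leaving out each array gave 0 to 250 (250 without wild type replicate 1, 1 without P61S replicate 2 or wild type replicate 2). A fit without one wild type array assumes that the other varies like the other groups. Replicates with the same number in different groups had correlations of -0.2 to 0.17 in their deviations from group means. With 2 or 3 arrays in a group, such values cannot show whether the numbers pair the samples, and the labels do not say. A replicate block gave 0 calls in each comparison, with Ptger3 at -0.66, 0.17 and 0.83.

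Among receptors, Ptger3 kept its direction in all 22 alternatives of each comparison, many of which could not turn it, as given above. It was -0.22 and 0.39 with normexp for P61S/R100E against P61S and for P61S against wild type, and -0.97 and 1.44 with slide column as a covariate, which also moved the median of all probes to -0.11 and 0.11. Ptger2 in P61S/R100E turned to 0.00 against P61S and 0.02 against wild type with the deposited values or outlier spots kept. P61S against wild type at Ptger2 ran from -0.04 to 0.07 with each array left out (-0.04 without P61S replicate 2, -0.01 without wild type replicate 1), and was 0.45 (SE 0.256) with slide column as a covariate. Ptger4 turned to 0.05 for P61S/R100E against wild type with normexp, and ran from -0.03 to 0.14 against P61S with each array left out (-0.03 without P61S/R100E replicate 1). With slide column as a covariate Bdkrb2 turned to -0.28 for P61S/R100E against P61S, 0.14 for P61S/R100E against wild type and 0.42 for P61S against wild type. Bdkrb2 in P61S/R100E ran from -0.66 to 0.08 against wild type with each array left out (0.08 without wild type replicate 2). Ptgir in P61S against wild type turned to -0.54 with slide column, -0.33 with discordant spots left out and -0.26 without P61S replicate 1 (range -0.26 to 0.82). Beyond the spots named above, the cause was not tested.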
